A study of Rattus norvegicus with 13 samples.

Results

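Glutamate receptors and the scaffolds that hold them under the synapse were examined in the brains of aged rats whose mothers had eaten a diet high in fructose or a control diet. The set held 34 genes out of the 14506 genes measured. It comprised 17 ionotropic receptor subunits (4 AMPA, 7 NMDA, 5 kainate and 1 delta), 7 metabotropic receptors (1 of group I, 2 of group II and 4 of group III) and 10 scaffolds (4 of the Dlg family of membrane-associated guanylate kinases, or MAGUKs, 3 Shank and 3 Homer genes). The rule takes the genes by symbol and uses no contrast between the groups, although the set was drawn up with earlier results of these data known. Each was read from 1 probe set, the group of probes on the array whose signals give 1 value for a transcript; where a gene had several, the one with the highest mean over the 13 arrays was used. Only Grid1 had more than 1, so the 34 genes had 35 probe sets.

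The 13 arrays came from 6 offspring samples of the maternal fructose group and 7 of the maternal control group. In the maternal fructose group the dams were fed high fructose through gestation and lactation, and in the maternal control group a control diet over the same period. All offspring were male Fischer F344 rats, an inbred strain, which were weaned onto chow on day 20 and killed at 15 months of age, so both groups ate the same food as adults. Total RNA of the whole brain without the cerebellum was hybridised, and the values are log2 signals, so a difference of 1 is a factor of 2 in signal. Where every array is given, maternal fructose stands in the order of replicates 1, 2, 3, 4, 7 and 8 and maternal control in the order of replicates 1, 2, 3, 4, 5, 7 and 8. The labels do not say that samples came from separate animals or litters, and the p-values therefore measure only the spread between these samples.

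Glutamate is the main excitatory transmitter of the brain. AMPA and kainate receptors are ion channels that open as soon as glutamate binds, NMDA receptors are channels that also need a co-agonist and depolarisation and let calcium in, and metabotropic receptors act through G proteins. In the postsynaptic density, MAGUK proteins anchor the channels, Shank proteins form the deeper layer of the scaffold, and Homer proteins tie Shank to group I metabotropic receptors and to intracellular calcium channels.

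The arrays carried a strong neuronal signal and a dimmer cerebellar one. Snap25, a neuronal marker, lay between 13.20 and 13.40, and Gabra6, a marker of cerebellar granule cells, lay between 5.41 and 6.01, below the lower quartile of every array. Gabra6 was the dimmest of 8 cerebellar markers, and Cbln3, Pcp2, Car8 and Slc1a6 had means of 7.72, 7.29, 7.18 and 7.15, above the lower quartiles of the arrays (6.78 to 6.96). Pairs of arrays correlated at 0.9852 to 0.9976 over the probe sets with a gene. Several arrays stood apart. Fructose replicate 3 and control replicate 8 had the highest mean level of 12 striatal marker genes, 0.341 and 0.508 above their means over all arrays, against -0.175 to 0.14 in the other arrays. Control replicates 1 and 2 had the narrowest distributions, with interquartile ranges of 2.19 and 2.15 against 2.26 to 2.50 in the others. Several results that rest on these arrays are given with and without them.

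No member differed between the maternal diets at an adjusted p under 0.05 (limma with Benjamini-Hochberg adjustment over 15633 probe sets), and neither did any other probe set, 0% of those tested. At an unadjusted p under 0.05 there were 0 of the 34 members, against 2.23% of all probe sets (1.33% higher and 0.896% lower in maternal fructose). The values of the 2 groups overlapped in all 34 members, and in all but 0.0384% of all probe sets. The differences between maternal fructose and maternal control ranged from -0.15 for Grik4 to 0.13 for Grm4. All 34 of the 95% intervals lay within a factor of 1.5 in either direction, as did 99% of those of all probe sets. The difference was above 0 in 26 of 34 members (76.5%), against 54.1% of all probe sets, with a median of 0.0237 in the members and 0.0056 over all. Some marker lists also lay mostly above 0, with 11 of 12 neuronal markers (median 0.053) and 9 of 12 astrocyte markers (median 0.084). Others lay mostly below 0, with only 1 of 8 cerebellar markers above it (median -0.050) and 3 of 10 microglial markers (median -0.022). The part of these lists in the members' count was not tested. The members' count depended on the scaling. It was 18 of 34 after a renewed quantile normalization and after cyclic loess, with medians of 0.0040 and 0.0062, and also 18 without fructose replicate 3 and control replicate 8, with a median of 0.0024. In tissue RNA, fewer cells of a type and less RNA per cell cannot be told apart.

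**Figure D1:**
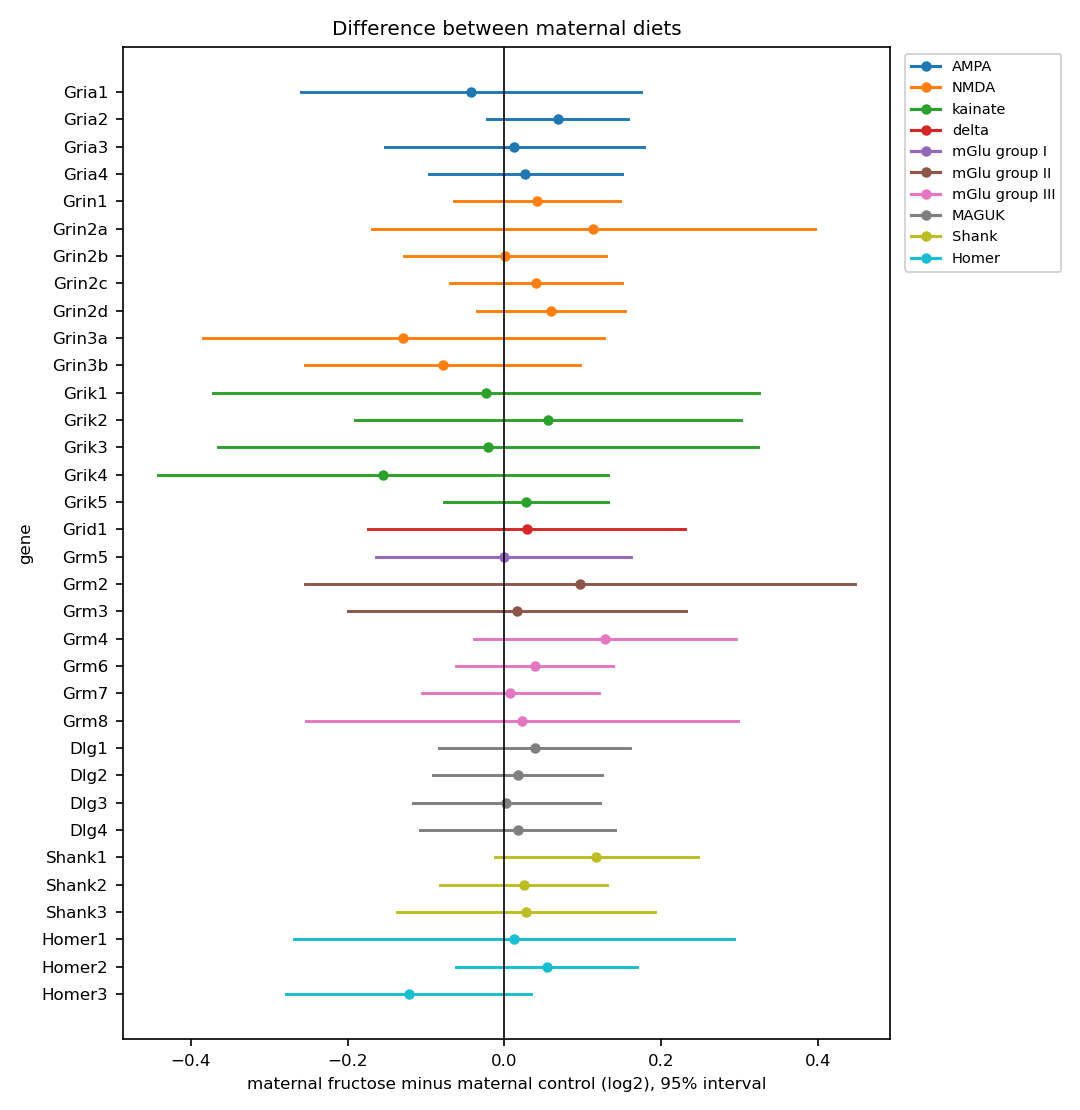
Difference in log2 signal between maternal fructose (n = 6) and maternal control (n = 7) for each of the 34 genes (points) with its 95% interval (lines), coloured by class, with 0 marked by the vertical line. Every interval crosses 0, and the widest belong to Grm2 and to the kainate genes Grik1 and Grik3, while Gria2, Grin2d and Grm6 have some of the narrowest.

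Among the AMPA receptor subunits, which form the fast channels at most excitatory synapses, 3 of 4 had a difference above 0, with a median of 0.020, and 0 of 4 passed the test. After renewed quantile normalization or cyclic loess 2 of 4 were above 0, with medians of -0.0020 and -0.0026. Gria2 encodes the subunit that keeps most AMPA receptors impermeable to calcium. In the maternal fructose arrays it read 12.036, 12.054, 12.117, 12.141, 12.086 and 11.917, and in the maternal control arrays 12.022, 12.005, 12.012, 12.033, 11.989, 11.962 and 11.910. In 5 of 6 maternal fructose arrays it lay above the mean of maternal control, but the groups overlapped through fructose replicate 8. The difference was 0.07, with a 95% interval of -0.02 to 0.16 (unadjusted p = 0.130, limma). In the deposited values its level was the steadiest of the 34 genes, with an SD within groups of 0.062. Gria1, a subunit that is moved into synapses during plasticity, spread more widely. It ran over 11.14, 11.28 and 11.72 (lowest, median and highest) in maternal fructose and 11.16, 11.42 and 11.68 in maternal control, a difference of -0.04 (interval -0.26 to 0.17). Its highest values were in fructose replicate 4 and control replicate 3. In the same arrays Prox1, a transcription factor of dentate granule cells, read 8.73 and 8.12, against 7.23 to 7.55 in the other 11 arrays. Prox1 was picked out after its values were seen, and its part in the Gria1 values was not tested. Gria3 differed by 0.01 (interval -0.15 to 0.18) and Gria4, the fourth pore-forming subunit, by 0.03 (interval -0.10 to 0.15).

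Among the NMDA receptor genes, 5 of 7 had a difference above 0, with a median of 0.040, and 0 of 7 passed the test. After renewed quantile normalization or cyclic loess 4 of 7 were above 0. Grin1, the subunit that every NMDA receptor contains, ran over 10.77, 10.95 and 11.03 (lowest, median and highest) in maternal fructose and 10.78, 10.89 and 10.99 in maternal control. These groups overlapped almost entirely, with a difference of 0.04 (interval -0.06 to 0.15). Grin2a and Grin2b encode the subunits that dominate in the adult forebrain. Grin2b read 10.90, 11.03, 11.18, 11.16, 11.18 and 10.88 in the maternal fructose arrays, and 11.09, 10.97, 11.09, 11.11, 11.08, 11.11 and 10.92 in the maternal control arrays. It averaged 11.05 ± 0.14 in maternal fructose and 11.05 ± 0.08 in maternal control (SD, n = 6 and 7), a difference of 0.0006 (interval -0.13 to 0.13). Grin2a ran over 10.55, 10.73 and 10.96 in maternal fructose and 9.93, 10.72 and 11.03 in maternal control, and its difference of 0.11 (interval -0.17 to 0.40) rested on 1 array. The low value belonged to control replicate 8, and without that array the difference was -0.0024.

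Control replicate 8 also decided the value of Grin3a, a subunit that lowers the calcium permeability of NMDA receptors. Grin3a read 7.87, 7.98 and 8.14 in maternal fructose and 7.74, 8.14 and 8.72 in maternal control, a difference of -0.13 (interval -0.38 to 0.13) that came to -0.029 without control replicate 8. So in 1 and the same array Grin2a was the lowest and Grin3a the highest of all 13. That array also had the lowest score for cortical and hippocampal markers, -0.526 against -0.203 to 0.345 in the others (7 of 12 list genes measured, with a median correlation between them of 0.077), and the highest level of Slc17a6, a vesicular glutamate transporter abundant in thalamus, 9.15 against 6.07 to 8.04. Slc17a6 is 1 gene picked from 8 measured thalamic markers, which had a median correlation between them of 0.032. The array also had the highest scores for striatal (0.508), brainstem (0.188), astrocyte (0.2), oligodendrocyte precursor (0.236) and microglial markers (0.248). The part of these markers in the 2 values was not tested. The remaining members differed by 0.04 for Grin2c (interval -0.07 to 0.15), a subunit best known from cerebellum and thalamus, by 0.06 for Grin2d (interval -0.03 to 0.15) and by -0.08 for Grin3b (interval -0.25 to 0.10). Grin2d and Grin3b were among the 3 members, with Grm6, whose mean signal lay below the median of all probe sets.

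In the deposited values the kainate receptor genes had the highest median SD within groups of the classes, 0.28. The group II metabotropic receptors came close, with 0.27. Group II had the larger median if the arrays were rescaled by quantiles or by loess, or if control replicates 1 and 2 were dropped. The same held without fructose replicate 3 and control replicate 8, but not with arrays centred on their medians. Of the kainate genes, 2 of 5 had a difference above 0, with a median of -0.021, and 0 of 5 passed the test. Grik1, Grik2 and Grik3 encode subunits that can form channels on their own, and Grik4 and Grik5 encode high-affinity subunits that need one of those as a partner. Grik1 read 8.30, 8.35, 8.97, 8.55, 8.05 and 8.08 in the maternal fructose arrays, and 8.48, 7.93, 8.39, 8.26, 8.35, 8.40 and 9.04 in the maternal control arrays. The single highest array of each group, fructose replicate 3 and control replicate 8, were the same 2 in which Grik3 was lowest. Grik3 stood at 8.57 in fructose replicate 3, against 9.02 to 9.31 in the other maternal fructose arrays, and at 8.44 in control replicate 8, against 9.02 to 9.70 in the other maternal control arrays. Both diets thus held 1 brain sample with high Grik1 and low Grik3, and neither gene's difference passed the test (-0.02 for each, with intervals of -0.37 to 0.33 for Grik1 and -0.37 to 0.32 for Grik3).

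Grik4 had the lowest difference of all members, and 1 control array carried most of it. Its values were 8.95, 8.93, 8.53, 8.96, 8.95 and 8.96 in the maternal fructose arrays, and 8.81, 8.79, 9.65, 9.11, 9.19, 8.62 and 9.07 in the maternal control arrays. All 6 maternal fructose arrays lay below the maternal control mean of 9.03, yet 3 control arrays lay below most of them. The difference of -0.15 (interval -0.44 to 0.13, unadjusted p = 0.269, limma) came to -0.052 without control replicate 3 and to -0.085 without fructose replicate 3. Grik2 read 9.61, 9.64, 9.87, 10.06, 9.56 and 9.28 in the maternal fructose arrays, and 9.62, 9.37, 9.59, 9.48, 9.56, 9.67 and 10.01 in the maternal control arrays. It was high in fructose replicates 3 and 4 and in control replicate 8, and its difference was 0.06 (interval -0.19 to 0.30). Grik5 was the steady member of the class, with an SD within groups of 0.080 against 0.23 to 0.34 in the other 4, and differed by 0.03 (interval -0.08 to 0.13).

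Grid1 encodes a delta receptor, a relative of the ionotropic receptors that works as a synaptic organiser bound by cerebellin. Its values were 9.73, 9.66, 10.13, 9.91, 9.72 and 9.45 in the maternal fructose arrays, and 9.69, 9.58, 9.80, 9.64, 9.62, 9.95 and 9.91 in the maternal control arrays. The maternal control values lay within the range of maternal fructose, with a difference of 0.03 (interval -0.17 to 0.23). Its other probe set gave a difference of 0.05.

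Among the metabotropic receptors, 6 of 7 had a difference above 0, 4 of 7 after renewed quantile normalization or cyclic loess, and 0 passed the test. Grm5, the group I receptor that couples to phospholipase C, read 10.49, 10.63, 10.69, 10.92, 10.67 and 10.43 in the maternal fructose arrays, and 10.67, 10.51, 10.69, 10.62, 10.72, 10.81 and 10.46 in the maternal control arrays. Here too the maternal control values lay within the range of maternal fructose. Grm5 averaged 10.64 ± 0.17 in maternal fructose and 10.64 ± 0.12 in maternal control (SD, n = 6 and 7), a difference of -0.0011 (interval -0.16 to 0.16). Group II receptors reduce transmitter release through inhibitory G proteins. Of these, Grm2 had the largest spread of all 34 members in the deposited values. It read 9.12, 9.33, 8.78, 9.76, 9.57 and 9.24 in the maternal fructose arrays, and 9.46, 9.01, 9.06, 9.50, 9.64, 9.03 and 8.71 in the maternal control arrays. Each diet covered almost the whole range, and the difference of 0.10 had an interval of -0.25 to 0.45. Grm3, a group II receptor found on neurons and astrocytes, read 10.88, 10.82, 10.41, 10.39, 10.76 and 10.68 in the maternal fructose arrays, and 10.86, 10.68, 10.59, 10.70, 10.83, 10.54 and 10.28 in the maternal control arrays. Its lowest values were in fructose replicates 3 and 4 and in control replicate 8, and it differed by 0.02 (interval -0.20 to 0.23).

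The 4 group III receptors, mostly presynaptic brakes on release, all had differences above 0, with a median of 0.031. After renewed quantile normalization or cyclic loess this held for 3 of 4, with Grm7 below 0. Grm4 had the largest positive difference of the whole set. It ran over 8.39, 8.66 and 8.76 in maternal fructose and 8.31, 8.59 and 8.73 in maternal control, so the groups overlapped over most of their range, and the difference of 0.13 (interval -0.04 to 0.30) did not pass the test (unadjusted p = 0.122, limma). Without fructose replicate 3 it was 0.18, with an unadjusted p of 0.0295 in the limma fit. Grm7, a receptor of the presynaptic active zone, differed by 0.0075 (interval -0.11 to 0.12), Grm8 by 0.02 (interval -0.25 to 0.30) and Grm6, the receptor of retinal bipolar cells, below the median signal here, by 0.04 (interval -0.06 to 0.14).

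The scaffolds had the lowest median SD within groups, 0.10, against 0.16 in the ionotropic and 0.15 in the metabotropic receptors. All 4 Dlg genes had differences above 0, but only by 0.0023 to 0.04, and after renewed quantile normalization or cyclic loess this held for 1 of 4. Dlg4 encodes PSD-95, the most abundant MAGUK of the postsynaptic density. Its levels were 10.79, 10.85 and 11.04 (lowest, median and highest) in maternal fructose and 10.67, 10.85 and 10.97 in maternal control, with a difference of 0.02 (interval -0.11 to 0.14). Dlg1 (SAP97) differed by 0.04 (interval -0.08 to 0.16), Dlg2 (PSD-93) by 0.02 (interval -0.09 to 0.12) and Dlg3 (SAP102) by 0.0023 (interval -0.12 to 0.12). All 4 intervals lay between -0.12 and 0.16.

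Shank1 came closest to the test's threshold among the 34 members. Its signals were 11.41, 11.48, 11.37, 11.19, 11.42 and 11.17 in the maternal fructose arrays, and 11.29, 11.22, 11.22, 11.27, 11.18, 11.33 and 11.06 in the maternal control arrays. In 4 of 6 maternal fructose arrays it was above every control array, while fructose replicates 4 and 8 lay within the control range. The means were 11.34 ± 0.13 in maternal fructose and 11.22 ± 0.09 in maternal control (SD, n = 6 and 7), and the difference of 0.12 ± 0.06 (SE) had an unadjusted p of 0.0731 and an adjusted p of 0.9998 in the limma fit. It came to 0.09 after renewed quantile normalization, with an unadjusted p of 0.169. Shank2 differed by 0.02 (interval -0.08 to 0.13) and Shank3, whose human counterpart is linked to Phelan-McDermid syndrome, by 0.03 (interval -0.14 to 0.19).

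Of the Homer genes, 2 of 3 had a difference above 0, and 1 of 3 after renewed quantile normalization or cyclic loess. Homer3 had the lowest difference among the scaffolds. It ran over 8.76, 8.89 and 8.97 in maternal fructose and 8.84, 8.92 and 9.32 in maternal control. All 6 maternal fructose arrays lay below the mean of maternal control, but that mean was drawn up by control replicate 3, and the difference of -0.12 (interval -0.28 to 0.03, unadjusted p = 0.117, limma) came to -0.068 without it. Homer1, known also for a short form induced by activity, differed by 0.01 (interval -0.27 to 0.29), and Homer2 by 0.05 (interval -0.06 to 0.17).

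**Figure D2:**
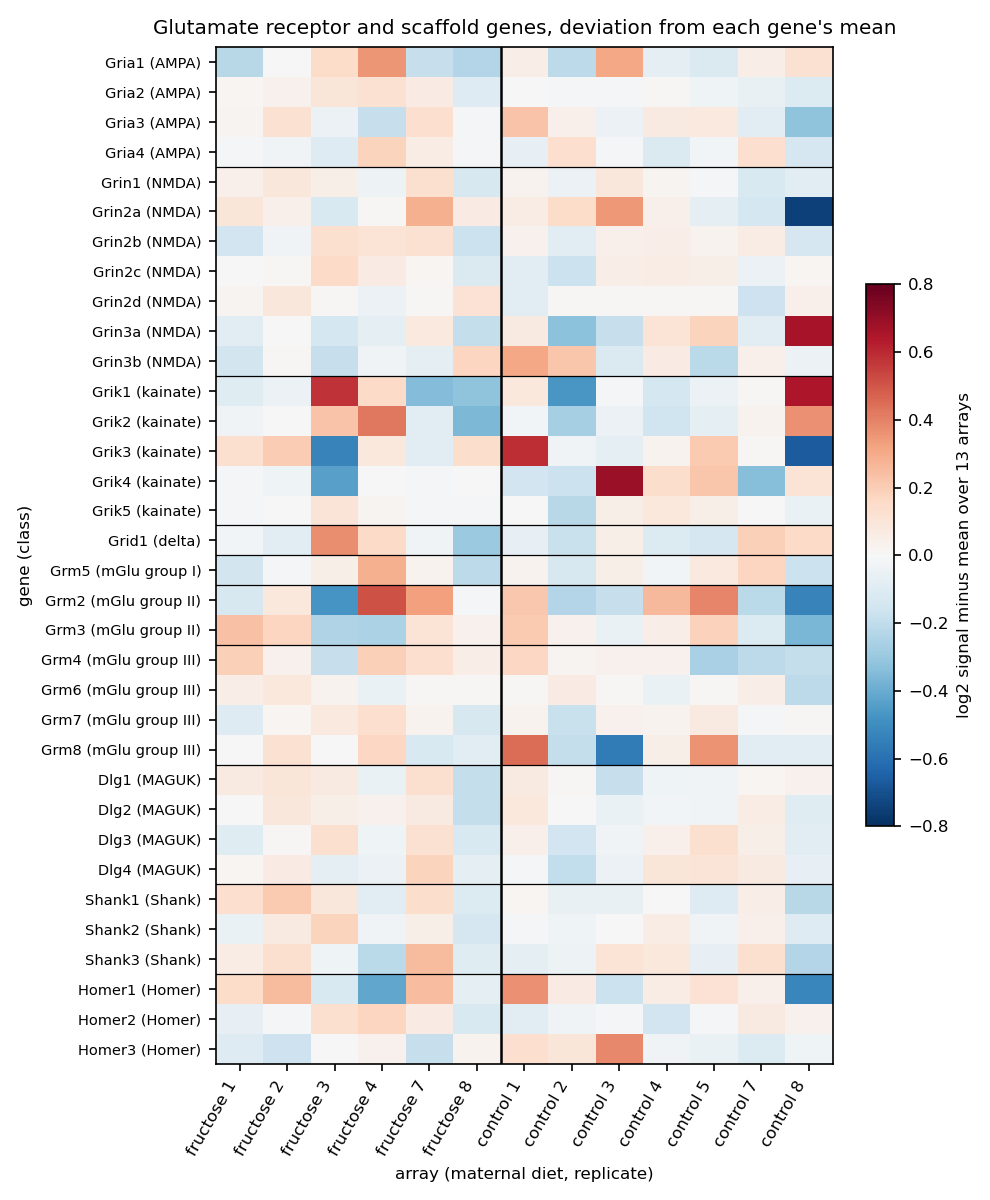
Log2 signal of each of the 34 genes (rows, by class) in each of the 13 arrays (columns, maternal fructose left of the line and maternal control right of it), as the deviation from the gene's mean over all arrays (colour scale, log2). The strongest colours lie in single arrays of either group, such as high Grik1 and low Grik3 in fructose replicate 3 and control replicate 8, and not in a block of either diet.

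The spread between brain samples of the same diet was wide for many of the receptors. Of the 34 members, 11 (32.4%) lay in the upper 10% of all probe sets by within-group SD, a bound that 10% of probe sets pass by definition. They were Gria1, Grin2a, Grin3a, Grik1, Grik2, Grik3, Grik4, Grm2, Grm3, Grm8 and Homer1. By kind, these were 7 of 17 ionotropic receptors, 3 of 7 metabotropic receptors and 1 of 10 scaffolds, and 4 of the 5 kainate genes were among them. Grm2 had the largest SD, 0.34, which only 2.04% of probe sets exceeded, followed by Grik1 with 0.34 and Grik3 with 0.33. After renewed quantile normalization Grik3 had a larger SD than Grm2, 0.345 against 0.334. At the other end, 92.9% of probe sets had a larger SD than Gria2 and 89.9% a larger one than Grin2d. Without control replicates 1 and 2 Grik5 was steadier than Gria2, with 0.048 against 0.067. The Dlg genes lay between 0.084 and 0.10, below the median of all probe sets of 0.11. The count in that upper 10% was 8 without control replicate 8, and 8 without both that array and fructose replicate 3, in which case Grin2a, Grin3a and Grm3 were no longer among them.

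**Figure D3:**
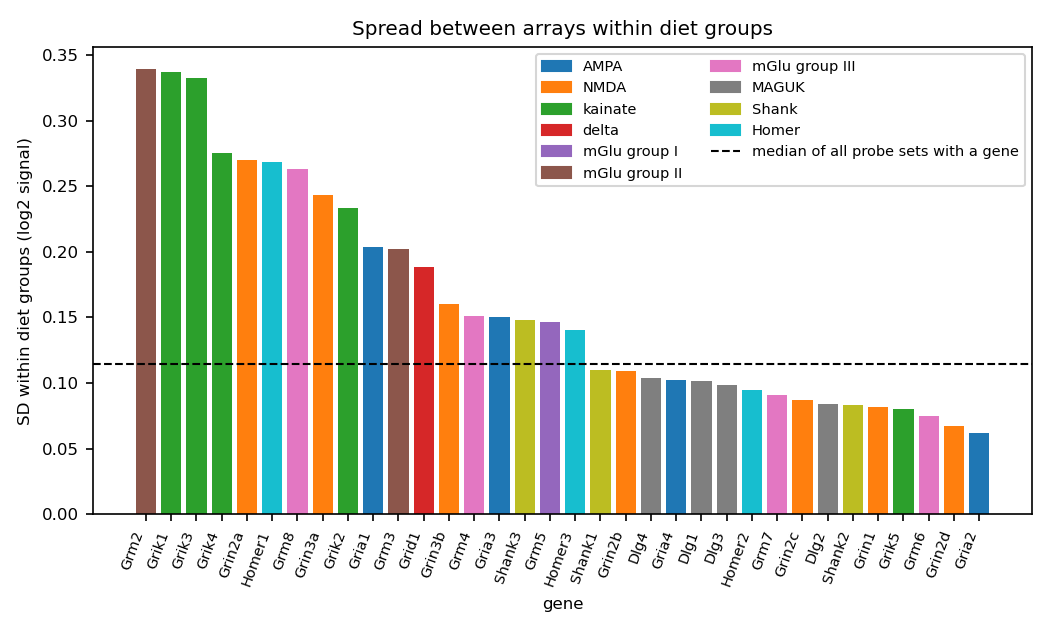
SD of the log2 signal between arrays within diet groups (bars) for each of the 34 genes in order of size, coloured by class, with the median of all probe sets with a gene as a dashed line. Grm2 and the kainate genes Grik1 and Grik3 reach 0.33 to 0.34, above the median of 0.11, whereas Gria2 lies at 0.062.

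The members were then set beside markers of brain regions and cell types. For each of 7 marker lists a score was taken, the mean over the list's genes of the log2 value minus that gene's mean. The striatal list (12 of 13 genes measured, among them Drd1, Drd2 and Ppp1r1b) had a median correlation between its genes of 0.582, the highest of the regional lists. Its score ran over -0.132, -0.065 and 0.341 (lowest, median and highest) in maternal fructose and -0.175, -0.116 and 0.508 in maternal control, so the diets did not separate. Drd1, the dopamine receptor of striatal output neurons, read 8.70 in fructose replicate 3 and 8.85 in control replicate 8, against 7.36 to 8.13 in the other arrays.

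Of the 34 members, 10 (29.4%) had an absolute Pearson correlation of 0.55 or more with the striatal score over the 13 arrays, against 15.1% of all probe sets. Grik1, Grik2 and Grid1 had positive correlations with it, and Gria3, Grin2a, Grik3, Grm2, Grm3, Grm6 and Homer1 had negative ones. Several of these rested on few arrays. For Grm2 r was -0.657 (Spearman's rho = -0.401), and -0.135 without fructose replicate 3 and control replicate 8. For Gria3 r was -0.752 (rho = -0.538), and -0.607 without that pair. Grm6 had r = -0.576 but rho = -0.051, and Homer1 had r = -0.647 but rho = -0.363. Over all 238 relations of members with scores, 0 passed an adjusted p of 0.05 by Pearson's r and 37 had an unadjusted p under 0.05 (permutation tests). The share of all probe sets at these bounds, or by rank, was not computed, so the counts do not show an excess in the members. By Spearman's rho 2 relations passed the adjusted p, both with the striatal score. These 2 were Grid1, with r = 0.782 (permutation p = 0.0012, adjusted 0.0714) and rho = 0.890 (permutation p = 0.00013, adjusted 0.0309, n = 13), and Grik2, with r = 0.745 (permutation p = 0.00474, adjusted 0.0960) and rho = 0.857 (permutation p = 0.00036, adjusted 0.0428, n = 13). Without the 2 arrays farthest from the median score, fructose replicate 3 and control replicate 8, r was 0.823 for Grid1 (permutation p = 0.00111) and 0.616 for Grik2 (permutation p = 0.0654). Within the diets r was 0.921 in maternal fructose and 0.776 in maternal control for Grid1, and 0.636 in maternal fructose and 0.910 in maternal control for Grik2 (n = 6 and 7).

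Grik1 and Grik3 followed the striatal score in opposite directions, but those relations rested more on the same pair of arrays. Grik1 had the largest r, 0.860 (permutation p = 0.00067, adjusted 0.0714, rho = 0.713 with permutation p = 0.00805, adjusted 0.383), which was 0.444 without fructose replicate 3 and control replicate 8 (permutation p = 0.166). For Grik3 r was -0.805 (permutation p = 0.00297, adjusted 0.0884, rho = -0.473 with permutation p = 0.106, adjusted 0.572), and -0.182 without that pair (permutation p = 0.547). For Grin2a r was -0.818 (permutation p = 0.0016, adjusted 0.0734, rho = -0.549 with permutation p = 0.0558, adjusted 0.532), and -0.423 without the pair (permutation p = 0.193). For Grm3 r was -0.811 (permutation p = 0.00083, adjusted 0.0714, rho = -0.50 with permutation p = 0.0847, adjusted 0.532), and -0.575 without the pair (permutation p = 0.0629). Within maternal fructose r was 0.950 for Grik1, -0.883 for Grik3, -0.733 for Grin2a and -0.717 for Grm3 (n = 6), and within maternal control it was 0.833 for Grik1, -0.772 for Grik3, -0.898 for Grin2a and -0.898 for Grm3 (n = 7). Each diet held 1 of fructose replicate 3 and control replicate 8, so the values within diets also include these arrays. By Pearson's r the relation of Grik3 thus rested mostly on that pair, and those of Grik1, Grin2a and Grm3 in part. None of these correlations says whether striatal cells carried more or less of a transcript, since tissue proportion was not measured.

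**Figure D4:**
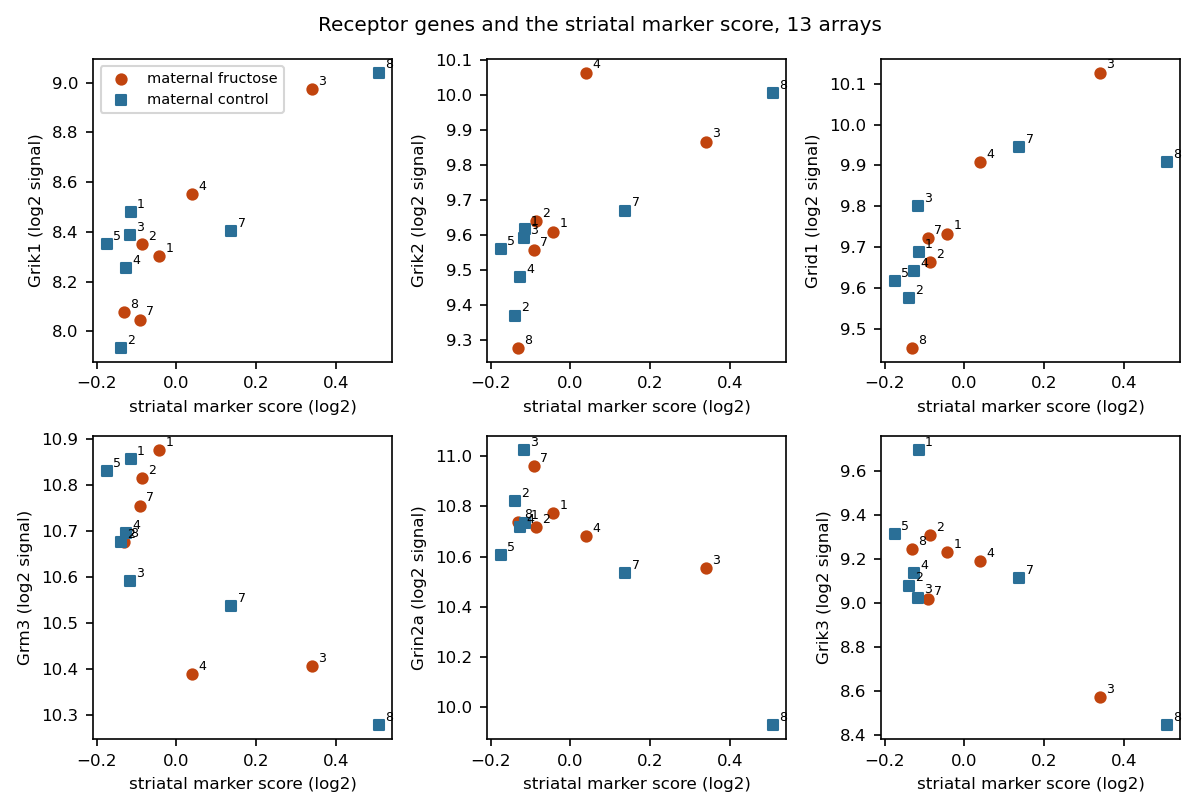
Log2 signal of 6 receptor genes (vertical axes) against the striatal marker score (horizontal axes, log2) in the 13 arrays, with maternal fructose as circles, maternal control as squares and the replicate number beside each. Grid1 climbs across the whole range of the score, while the low values of Grik3 and Grin2a at its right end belong to fructose replicate 3 and control replicate 8.

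With the other scores the shares were 23.5% of members against 11.6% of all probe sets for thalamus, 11.8% against 5.06% for cortex and hippocampus, 8.82% against 8.40% for neurons, 8.82% against 22.6% for cerebellum, 14.7% against 33.5% for astrocytes and 14.7% against 5.41% for oligodendrocytes. The genes of the thalamic list did not move together (median correlation 0.032), and neither did those of the cortical and hippocampal list (0.077), so neither score stands for 1 shared pattern. Genes of the neuronal and cerebellar lists moved together only weakly (0.167 and 0.234), against 0.497 in the astrocyte and 0.916 in the oligodendrocyte list. The 5 members related to the oligodendrocyte score, Grin2b, Grm2, Grm8, Dlg3 and Dlg4, all had negative correlations. Of the 5 members related to the astrocyte score, Grin2c had a positive correlation and Gria3, Grin3b, Grm6 and Homer1 had negative ones. For Grin3b r was -0.732, and -0.281 without control replicates 1 and 2 (permutation p = 0.407). Those arrays had the lowest astrocyte scores, -0.265 and -0.208.

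Correlations were also taken between pairs of members across the 13 arrays. Of 561 pairs, 92 had an unadjusted p under 0.05 by a permutation test of Pearson's r. The share of all pairs of probe sets at that bound was not computed. At an adjusted p of 0.05, 4 pairs passed. These 4 were also the member pairs with an absolute r at or above the lowest of theirs, 0.835 (0.713%, against 0.409% of all pairs of probe sets). That bound was set by these same pairs, so the shares do not show an excess in the members. All 4 pairs were positive and joined genes of different classes, as did 505 of the 561 pairs. Gria3 and Homer1 had the largest, r = 0.945 (permutation p = 1e-05, the smallest that the permutations can give, adjusted 0.00561) and rho = 0.923 (permutation p = 5e-05, adjusted 0.0196, n = 13). Within the diets r was 0.975 in maternal fructose and 0.948 in maternal control, and without control replicates 1 and 8, the arrays farthest from the median of Gria3, it was 0.889. Gria3 read 11.69, 11.80, 11.63, 11.49, 11.81 and 11.66 in the maternal fructose arrays, where Homer1 read 10.20, 10.30, 9.93, 9.64, 10.30 and 9.98. In the maternal control arrays Gria3 read 11.90, 11.72, 11.63, 11.75, 11.75, 11.58 and 11.35, and Homer1 10.42, 10.12, 9.88, 10.11, 10.17, 10.09 and 9.53. Both genes were lowest in fructose replicate 4 of the one diet and in control replicate 8 of the other. These arrays also had the highest score of meningeal markers (6 of 7 list genes measured). It was 0.949 in fructose replicate 4, against -0.392 to 0.278 in the rest of that group. In control replicate 8 it was 0.718, against -0.509 to 0.396. The meningeal list was not among the 7 whose relations with the members were tested. The thalamic score, which was among them, was also highest in these arrays, 0.154 and 0.281. With it r was -0.821 for Gria3 and -0.801 for Homer1, and -0.340 and -0.282 without both arrays. The part of these scores in the correlation of Gria3 with Homer1 was not tested.

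Grm3 made up a trio with these genes. It correlated with Homer1 at r = 0.897 (permutation p = 6e-05, adjusted 0.0131, rho = 0.890 with permutation p = 0.00022, adjusted 0.0411) and with Gria3 at r = 0.883 (permutation p = 7e-05, adjusted 0.0131, rho = 0.835 with permutation p = 0.00079, adjusted 0.0739). Without the 2 farthest arrays r was 0.772 with Homer1 and 0.812 with Gria3. Within the diets r with Homer1 was 0.874 in maternal fructose and 0.920 in maternal control, and with Gria3 it was 0.791 in maternal fructose and 0.971 in maternal control. The fourth pair was Grin2b with Grm5, r = 0.835 (permutation p = 0.00021, adjusted 0.0295, rho = 0.758 with permutation p = 0.00376, adjusted 0.134), at 0.747 without fructose replicates 1 and 8, 0.825 within maternal fructose and 0.873 within maternal control. No pair passed when fructose replicate 3 and control replicate 8 were both left out.

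**Figure D5:**
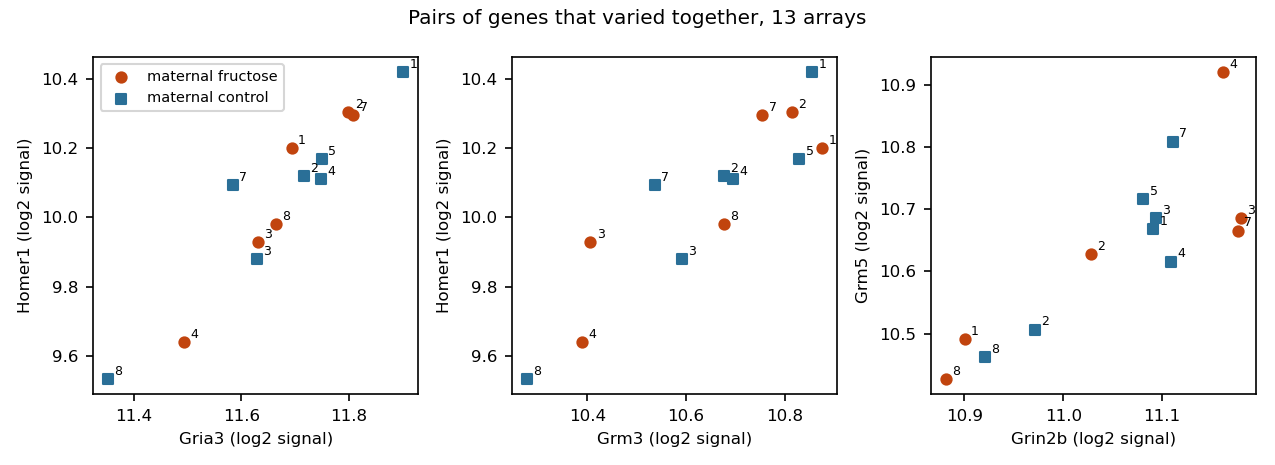
Log2 signals of 3 pairs of members over the 13 arrays, with maternal fructose as circles, maternal control as squares and the replicate number beside each. Gria3 and Homer1 lie close to 1 line in both diets (r = 0.945), with fructose replicate 4 and control replicate 8 at its lower end.

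The kainate pair Grik1 and Grik2 had r = 0.835 (permutation p = 0.00069, adjusted 0.0596) and rho = 0.897 (permutation p = 7e-05, adjusted 0.0196, n = 13), which passed by rank only. The 2 genes and Homer1 are shown by the sequence just before their annotated starts, since Grik1 had the largest r with the striatal score, Grik2 was one of the 2 members that passed by rank with that score, and Homer1 was in 2 of the 4 pairs past the threshold. The sequences are the 250 bases before the start in RefSeq on the GRCr8 build, at chr11:41056504-41056753 on the minus strand for Grik1, chr20:54415284-54415533 on the minus strand for Grik2 and chr2:26278762-26279011 on the plus strand for Homer1. Capitals mark the only matches to the motifs searched. They are the core of a cAMP response element in Grik2 (TGACG, here as its reverse complement CGTCA) and the letters of a TATA box in Homer1. The latter (TATAAA) stand as their reverse complement TTTATA, on the opposite strand and in the part of the window farthest from the start.
Grik1: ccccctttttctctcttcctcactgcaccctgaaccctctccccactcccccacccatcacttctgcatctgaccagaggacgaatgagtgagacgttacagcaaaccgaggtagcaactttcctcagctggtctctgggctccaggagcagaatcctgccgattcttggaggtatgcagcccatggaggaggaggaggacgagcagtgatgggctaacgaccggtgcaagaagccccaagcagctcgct
Grik2: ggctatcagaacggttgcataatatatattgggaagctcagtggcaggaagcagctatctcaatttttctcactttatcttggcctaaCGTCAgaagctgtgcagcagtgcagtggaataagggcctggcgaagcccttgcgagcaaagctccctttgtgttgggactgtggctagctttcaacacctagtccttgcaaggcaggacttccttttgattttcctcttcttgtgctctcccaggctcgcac
Homer1: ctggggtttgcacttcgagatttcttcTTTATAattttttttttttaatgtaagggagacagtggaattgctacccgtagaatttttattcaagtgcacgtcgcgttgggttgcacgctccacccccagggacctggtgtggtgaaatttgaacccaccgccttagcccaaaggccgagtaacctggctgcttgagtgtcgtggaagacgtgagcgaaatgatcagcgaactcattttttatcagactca

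The table of promoter sequences had an entry for 20 of the 34 members, and 5 motifs were searched on both strands. The GC box (GGGCGG) was found in 15% of member promoters, those of Grik3, Grik5 and Grm7, against 30.5% of 33469 promoters of the same length. The core of the cAMP response element (TGACG), which is also part of the full element, was found in 10% of member promoters, those of Grik2 and Grin1, against 18.2%. The E box (CACGTG) was found in 5%, that of Dlg1, against 5.59%, the TATA box in 5%, that of Homer1, against 12.9%, and the full cAMP response element (TGACGTCA) in 0 of 20, against 1.59%. A match describes the letters in this window and not a bound site.

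Other genes of the glutamate synapse were read in the same way from 4 lists. Of their 79 measured genes, 0 passed an adjusted p of 0.05, and neither did any other probe set. At an unadjusted p under 0.05 there were 0 (limma), against 2.23% of all probe sets. A difference above 0 was found in 54 (68.4%), against 54.1% of all probe sets, with a median of 0.017 against 0.0056. Among the auxiliary subunits and adhesion partners of the receptors, 5 of 18 had a difference above 0, with a median of -0.014. The AMPA receptor auxiliary subunit Cacng3 averaged 11.24 ± 0.17 in maternal fructose and 11.10 ± 0.19 in maternal control (SD, n = 6 and 7), a difference of 0.14, and Cacng7 differed by 0.10. The postsynaptic adhesion molecules Lrrtm2 and Lrrtm4 differed by -0.10 and -0.09.

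Among the other proteins of the postsynaptic density, 24 of 26 had a difference above 0, with a median of 0.031, and 18 of 26 after renewed quantile normalization. The positive differences with the smallest p were those of Lin7c, 0.11, and of Mpp2, a MAGUK, 0.08, and the negative ones were Begain, a binding partner of PSD-95, with -0.07 and Grip1, which binds AMPA receptors, with -0.01. Of the signalling genes downstream of the receptors, 15 of 20 had a difference above 0, with a median of 0.029. That count was 12 of 20 after renewed quantile normalization and 11 of 20 after cyclic loess. The signalling genes included Ppp3ca, the catalytic subunit of calcineurin, with 0.09 and Dgkz with 0.12. Itpr1, the calcium channel that Homer binds, had -0.09 and the kinase subunit Camk2d -0.12. Of the genes for supply and uptake of glutamate and co-agonists, 10 of 15 had a difference above 0, with a median of 0.017. After renewed quantile normalization or cyclic loess this held for 8 of 15. The astrocyte glutamate transporter Slc1a2 averaged 12.94 ± 0.07 in maternal fructose and 12.85 ± 0.06 in maternal control, a difference of 0.09 that had the smallest unadjusted p of the 79 genes, 0.0534 (limma), and Slc1a3 differed by 0.08. Dao, the oxidase of the co-agonist D-serine, differed by -0.10 and Srr, which makes D-serine, by -0.02.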

How the data were processed

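The authors deposited one table of log2 values that covered 29214 probe sets of a rat gene array from Affymetrix. Per the submitters' processing notes, RMA (background correction, equalised distributions, summary of probes) and R 3.0.1 were used. No source used here names the genome build of the array annotation. The deposited log2 values were taken unchanged. The platform annotation gave 1 gene symbol to 15310 probe sets, several to 323 and none to 13581. Genes were named only from probe sets with 1 symbol, and all 34 members were found in a current rat gene table.

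Using limma 3.58.1 (R 4.3.3), a linear model with moderated variances was fitted to the 15633 probe sets with a gene, unfiltered, with maternal control subtracted from maternal fructose. Benjamini-Hochberg adjustment ran over all of them. The fit was tested on simulated data. Correlations over the 13 arrays were tested with 100000 permutations in Python 3.11.15 (NumPy 2.4.6, SciPy 1.17.1) and adjusted over 238 relations of members with marker scores and over 561 pairs. The members and the lists of markers and of other synaptic genes were chosen with earlier results of these data known. All members are named. Values in every array are given for those with the largest and smallest spread or with a relation or pair past the threshold, and for Shank1, Grik1 and Grik4, which were added after their values were seen. From each list of other synaptic genes, the 2 with the smallest p in each direction are named. Alternatives were other scalings, array weights, an intensity trend, a filter on dim probe sets, a replicate block and leaving out arrays. The number of arrays limits the precision, and no detection p-values were used.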

Additional observations from a re-analysis of the deposited data

Results flagged for a closer look

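Each member was checked in each diet group for 1 array that stood apart from the rest of its group, 68 groups in all, and 5 were found. Chance gives about 1 in 20 such groups. Grik4 had its lowest maternal fructose value, 8.53, in fructose replicate 3, with the next at 8.93. In the same array Grik5 had its highest maternal fructose value, 10.21, with the next at 10.13. Dlg2 had its lowest maternal fructose value, 11.42, in fructose replicate 8, with the next at 11.62. Dlg1 had its lowest maternal control value, 10.09, in control replicate 3, with the next at 10.24. Grm7 had its lowest maternal control value, 10.02, in control replicate 2, one of the arrays with the narrowest distributions, with the next at 10.18.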

How the results depend on the processing

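Counts of members past an adjusted p under 0.05 were 0 under every alternative run. At an unadjusted p under 0.05 there was 1 of 34 members with array weights (Shank1, 0.14), against 4.86% of all probe sets. Without control replicates 1 and 2 there was also 1 (Grm4, 0.19), against 4.59%. When 1 array was left out there were 0 to 2, against 1.59% to 3.37%. The 2 were Gria2 and Shank1 (0.096 and 0.15) without fructose replicate 8, against 3.03%. The other synaptic lists had 1 gene at an unadjusted p under 0.05 with an intensity trend, with array weights, without the 30% dimmest probe sets and without fructose replicate 3 and control replicate 8, and 0 to 3 when 1 array was left out. In the same order, 2.16%, 4.86%, 2.06% and 2.82% of all probe sets tested did so, and 1.59% to 3.37% when 1 array was left out. The number of members above 0 was 18 to 28 under the alternatives and 20 to 29 when 1 array was left out, and their median difference stayed between 0.0024 and 0.041. Pairs past the threshold numbered 3 with renewed quantile normalization, cyclic loess, diet means removed or Spearman's rho, 25 with arrays centred on their medians, 1 without control replicates 1 and 2 and 0 without fructose replicate 3 and control replicate 8. Relations with marker scores past the threshold numbered 2 by Spearman's rho. The 2 arrays with the highest striatal score were chosen to be left out after seeing the data. The cause of these shifts was not tested.

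None of the reversed signs concerned a difference past the threshold. Renewed quantile normalization gave Gria3 -0.0091, Grin2b -0.020, Grm3 -0.0086, Grm7 -0.011, Dlg2 -0.0089, Dlg3 -0.017, Dlg4 -0.0070 and Homer1 -0.0050. Cyclic loess gave Gria3 -0.011, Grin2b -0.022, Grm3 -0.0065, Grm7 -0.014, Dlg2 -0.0065, Dlg3 -0.018, Dlg4 -0.0057 and Homer1 -0.0086. Centring on medians gave Grm5 0.0049. Array weights gave Grin2b -0.043, Grik3 0.032, Grik5 -0.0085, Grm7 -0.016, Dlg3 -0.018 and Dlg4 -0.00017. Without control replicates 1 and 2 the values were Grin2b -0.0087, Grin2c -0.0042, Grin3b 0.013, Grik3 0.088, Grik5 -0.010, Grid1 -0.015, Grm7 -0.021, Dlg3 -0.019 and Dlg4 -0.022. Without fructose replicate 3 and control replicate 8 they were Gria3 -0.030, Grin2b -0.047, Grid1 -0.015, Grm7 -0.0054, Dlg2 -0.0053, Dlg3 -0.036, Shank2 -0.023 and Homer1 -0.048. Leaving out 1 array at a time gave ranges that crossed 0 for 19 members: Grm5 -0.058 to 0.041, Grm3 -0.044 to 0.068, Homer1 -0.074 to 0.096, Gria3 -0.040 to 0.052, Grin2b -0.025 to 0.035, Grik3 -0.13 to 0.083, Grid1 -0.044 to 0.091, Grm7 -0.021 to 0.034, Dlg3 -0.023 to 0.026, Shank2 -0.0079 to 0.054, Gria4 -0.0059 to 0.051, Grik2 -0.024 to 0.13, Grm8 -0.069 to 0.099, Grik1 -0.14 to 0.082, Dlg4 -0.017 to 0.035, Shank3 -0.020 to 0.074, Gria1 -0.12 to 0.0064, Grik5 -0.0066 to 0.044 and Grin2a -0.0024 to 0.18.

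The groups share replicate numbers 1, 2, 3, 4, 7 and 8, but same-numbered arrays did not deviate together (correlations of -0.335 to 0.187), so the numbers were not taken to pair the samples. With a replicate block, 0 members had an unadjusted p under 0.05, 28 of 34 were above 0 with a median of 0.029, and the signs of Grik3 (0.012) and Grm5 (0.012) turned.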
